A study of Mus musculus with 8 samples.

Results

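The replication-dependent histone genes encode the core histones H2A, H2B, H3 and H4 that package newly made DNA. Their members here are the rows of an array table for which every gene symbol in the platform annotation had the form H2ac, H2bc, H3c or H4c followed by a number, or an older Hist form. The rule found 37 of 24922 rows, which named 37 genes: 4 rows for H2A, 9 for H2B, 13 for H3 and 11 for H4. The naming rule itself uses no values, but the family was chosen by a measured value: H2ac15 was already known from these data to lie near the top of the comparison of genotypes, so the differences between genotypes are given as a description, with no test.

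The arrays were hybridised with RNA from the tibialis anterior, a lower leg muscle taken whole from male C57BL/6 mice 8 days after a freezing injury made with a metal probe held on the muscle for 8 seconds. The 4 ST2 flox samples (ST2 FL/Foxp3-Cre) carry floxed ST2, the receptor of interleukin-33, together with Foxp3-Cre, and the 4 ST2 WT samples (ST2 WT/Foxp3-Cre) carry Foxp3-Cre with unfloxed ST2. The samples are labelled as 10 weeks old, while the series text gives 2 months. Cre expressed from Foxp3 acts in regulatory T cells, a small part of injured muscle, and every other cell type of a flox sample keeps its own ST2. The labels do not say that each sample came from a separate animal, so any p-value measures the spread between samples, which may be technical. ST2 itself was not analysed here, so the arrays give no check of the deletion.

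A cell needs large amounts of core histone only while it copies its DNA, and it makes them from many near-identical gene copies that lie in clusters. Their mRNAs end in a short stem-loop in place of a poly(A) tail, and a stem-loop binding protein, Slbp, governs their processing, translation and decay. Transcription of the clusters is switched on in S phase through the coactivator Npat, which cyclin E and Cdk2 phosphorylate. In muscle that regenerates after injury, dividing cells include satellite cells and their myoblast progeny, fibro-adipogenic progenitors, endothelial cells and leukocytes. In whole tissue, fewer dividing cells and less histone mRNA per dividing cell cannot be told apart.

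The promoters are shown first, with matches to short motifs marked. How far the copies of a class shared these motifs differed between the classes. RefSeq (build GRCm38.p6) gave a window of 250 bases before to 50 bases after the start for 32 of the 37 genes. The stretches below are the 160 bases just before the start, 5′ to 3′ in the sense of the gene, for 1 gene of each class that the results name or that the shared H3 rows hold. Capitals mark matches on either strand to the CCAAT box (CCAAT), the TATA box (TATAAA), the octamer (ATTTGCAT) or an E2F site (TTTCGCGC or TTTGGCGC).
H2ac15 (chr13:21753913-21754072, minus strand): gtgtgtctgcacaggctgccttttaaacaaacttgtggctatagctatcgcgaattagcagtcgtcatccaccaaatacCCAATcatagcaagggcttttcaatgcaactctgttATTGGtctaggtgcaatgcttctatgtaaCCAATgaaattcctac
H2bc3 (chr13:23746574-23746733, plus strand): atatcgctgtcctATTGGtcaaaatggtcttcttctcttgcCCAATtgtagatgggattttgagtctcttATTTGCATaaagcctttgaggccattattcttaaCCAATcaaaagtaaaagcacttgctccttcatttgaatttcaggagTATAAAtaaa
H3c2 (chr13:23752185-23752344, plus strand): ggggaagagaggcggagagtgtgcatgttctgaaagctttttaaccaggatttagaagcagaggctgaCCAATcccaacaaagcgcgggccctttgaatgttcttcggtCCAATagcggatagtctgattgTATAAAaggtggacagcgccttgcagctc
H4c6 (chr13:23551669-23551828, minus strand): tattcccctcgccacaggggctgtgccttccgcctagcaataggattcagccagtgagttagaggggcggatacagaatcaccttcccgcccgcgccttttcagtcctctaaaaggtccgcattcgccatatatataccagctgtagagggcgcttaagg

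The H2ac15 stretch held 3 CCAAT boxes, beginning 81, 45 and 16 bases before the start, and the one at 45 was in the reverse orientation. The H2bc3 stretch held 3 CCAAT boxes and a TATA box that began 10 bases before the start. It also held 1 octamer, the motif bound by Oct-1 in H2B promoters, which began 90 bases before the start. H3c2 held 2 CCAAT boxes and a TATA box that began 29 bases before the start. The H4c6 stretch held 0 matches to any of these motifs.

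Over the whole 300-base windows the classes differed in what they held. A CCAAT box was present in 4 of 4 H2A, 7 of 7 H2B and 10 of 10 H3 windows but in 3 of 11 H4 windows, against 37.4% of all 32851 promoter windows. For H3c14 and H3c15 the only CCAAT box lay after the start. The octamer was present in 3 of 4 H2A and 5 of 7 H2B windows and in 0 of 10 H3 and 0 of 11 H4 windows, against 1.74% of all windows. A match to the TATA box, at any position, was present in 20 of 32 windows (62.5%), against 13.6% of all. These positions varied: the matches of H2ac15 and H4c1 lay after the start, and that of H4c6 began 250 bases before it. An E2F site of either spelling was present in 1 of 32, that of H2bc22, against 0.813%. The windows of H2ac8 and H2bc8 share 279 bases and those of H2ac1 and H2bc1 share 220 bases, so the members of each pair are not independent. None of the 5 motif strings contains another, and each match is a description of letters.

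Of the 37 rows, 22 named 1 gene and 15 named several. In the latter, 10 rows carried the same 12 H3 genes, 4 rows carried the same 11 H4 genes and 1 row carried H4c17 and H4c11. The copies of a class are so alike in their coding sequence that a row may also take signal from copies it does not name, and the 10 shared H3 rows cannot be taken as 10 separate measurements. Over the 8 arrays, each pair of these 10 rows was correlated with r of at least 0.967 (45 pairs, no test), and each pair of the 4 shared H4 rows with r of at least 0.989 (6 pairs).

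Array medians lay between 185 and 189 on the intensity scale, and arrays correlated across rows with a median r of 0.992 within and between groups. Muscle markers were present on all 8 arrays, with log2 levels of at least 13.6 for Acta1, the skeletal actin gene, and 13.6 for Ckm, the muscle creatine kinase gene. The embryonic myosin gene Myh3 lay between 9.01 and 9.74. Foxp3 lay between 7.13 and 7.49. A filter at a mean log2 level of 6.35, the 25th percentile over the table, removed dim rows from the comparison and kept 18691. Limma called 0 of these between genotypes at an adjusted p of 0.05 (0.0%), with a smallest adjusted p of 0.922, and 705 rows (3.77%) had an unadjusted p under 0.05. The histone differences below therefore stand without a call, which does not show that the levels were equal.

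Nearly every histone row that could be compared had a higher mean in ST2 flox muscle, by small amounts and with 1 flox sample, number 4, closer to the WT samples than to the other flox samples. Of the 31 histone rows above the filter, 30 had a higher mean in flox, where 49.2% of all rows did. Their median difference was 0.14 on the log2 scale, where that of all rows was -0.002, and single rows ranged from -0.01 to 0.38. Over all rows, the 5th and 95th percentiles of the difference were -0.15 and 0.17. With 1 row kept of the 10 shared H3 rows and 1 of the 4 shared H4 rows, 18 of 19 rows were higher in flox. Their median was 0.12. Single-gene rows stayed in, and several of their genes, H3c4 among them, are also named on a shared row. Without the filter the count was 34 of 37 rows.

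**Figure D1:**
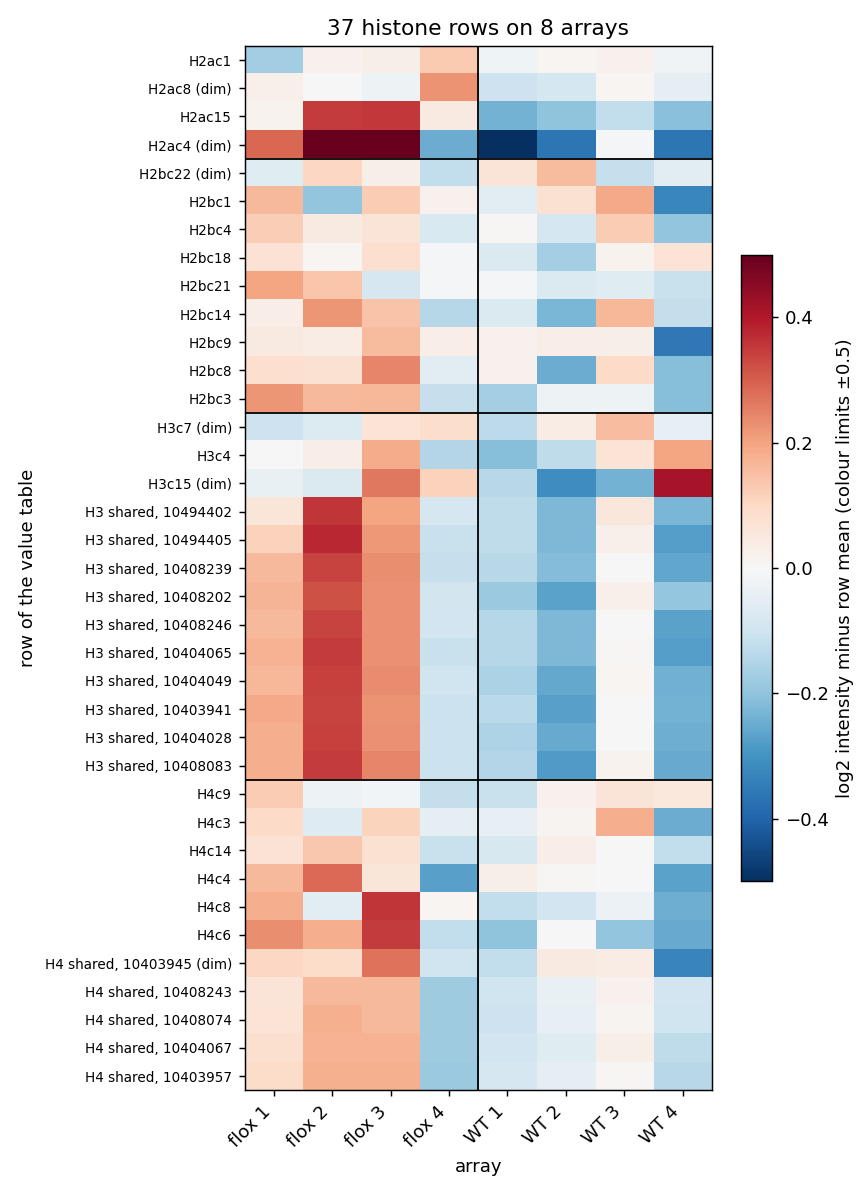
The 37 histone rows (vertical axis, grouped as H2A, H2B, H3 and H4, with rows under the filter marked dim) on the 8 arrays (horizontal axis), coloured by log2 intensity minus the row's mean over the arrays. Flox 1 to 3 are mostly red, flox 4 is mostly pale blue like the WT arrays, and the 10 shared H3 rows repeat 1 pattern.

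H2ac15 encodes an H2A protein and was the only one of the 31 rows with every flox sample above every WT sample. It lay at a log2 level of 10.06, 10.39, 10.39 and 10.09 on flox arrays 1 to 4 and at 9.81, 9.84, 9.92 and 9.83 on WT arrays 1 to 4. Flox arrays 2 and 3 stood above flox arrays 1 and 4, and the 4 WT arrays lay close together. The difference was 0.38 (SE 0.09, n = 4 and 4), or 1.30-fold, and the SD was 0.18 in flox and 0.05 in WT. Over all rows, 203 (1.09%) had flox above WT on every array and 156 (0.835%) had flox below WT on every array, and 61 rows had a larger positive difference than H2ac15.

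The other H2A rows were few. H2ac1, a testis-specific H2A gene, lay at 7.92, 8.11, 8.12 and 8.23 on the flox arrays and at 8.07, 8.10, 8.12 and 8.08 on the WT arrays. Its groups overlapped fully, with a difference of 0.00 (SE 0.07). H2ac4 and H2ac8 lay under the filter. H2ac4 had log2 levels of 5.23, 5.48, 5.64 and 4.69 in flox and 4.40, 4.58, 4.93 and 4.58 in WT, a difference of 0.64 (SE 0.18) that is the largest of the 37 rows but comes from a dim row. Flox arrays 1 to 3 were above every WT array there and flox 4 was not. H2ac8 lay between 3.03 and 3.36 on all arrays.

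**Figure D2:**
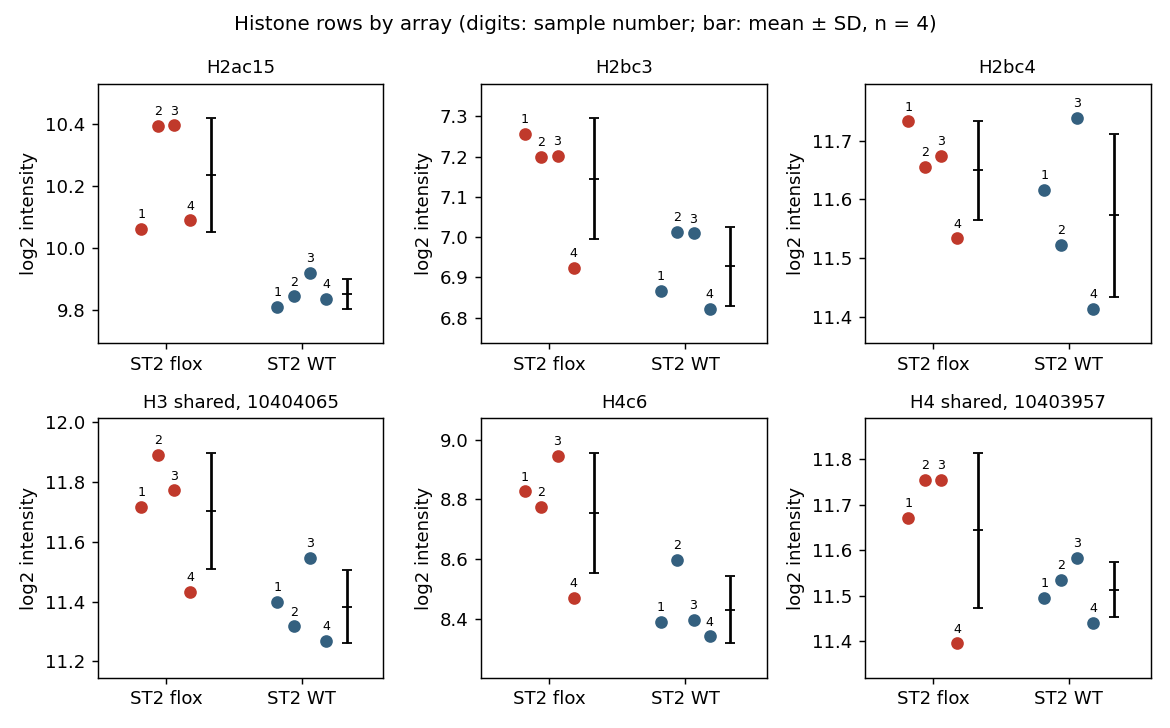
Log2 intensity (vertical axes, each with its own range that does not start at 0) of 6 histone rows in ST2 flox and ST2 WT samples; points are single arrays marked with the sample number, and bars give the mean ± SD of 4 arrays. H2ac15 separates the groups, while flox 4 falls among or below the WT arrays in the other 5 panels.

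The H3 genes were seen mainly through the 10 shared rows, which all had higher means in flox, by 0.26 to 0.33. The row with the highest mean, 10404065, lay at 11.72, 11.89, 11.77 and 11.43 on flox arrays 1 to 4 and at 11.40, 11.32, 11.55 and 11.27 on WT arrays 1 to 4. Flox 1 to 3 were above all WT arrays, and flox 4 lay between WT 1 and WT 3. Its difference was 0.32 (SE 0.10), or 1.25-fold. The rows with the largest differences, 10408083, 10404028 and 10403941, gave 0.33 (SE 0.10), 0.32 (SE 0.10) and 0.32 (SE 0.10) with the same order of arrays in flox. The 3 rows that named a single H3 gene gave smaller differences: H3c4 differed by 0.04 (SE 0.10), and the dim rows of H3c7 and H3c15 by -0.01 (SE 0.08) and 0.14 (SE 0.15). H3c4, H3c7 and H3c15 are also among the 12 genes of the shared rows.

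The H4 rows were less uniform. The shared row 10403957 lay at 11.67, 11.75, 11.76 and 11.40 on the flox arrays and at 11.50, 11.54, 11.58 and 11.44 on the WT arrays, where flox 4 was the lowest of all 8. Its difference was 0.13 (SE 0.08), and 0.21 without flox 4. The 4 shared H4 rows differed by 0.11 to 0.13, less than any of the shared H3 rows, but this contrast between the classes was not tested. H4c6 was higher, at 8.83, 8.78, 8.94 and 8.47 in flox and 8.39, 8.60, 8.40 and 8.34 in WT, a difference of 0.32 (SE 0.10), with flox 4 below WT 2 only. H4c8 lay at 6.96, 6.73, 7.14 and 6.79 in flox and 6.66, 6.68, 6.75 and 6.54 in WT, a difference of 0.25 (SE 0.09). There flox 2, not flox 4, was the array that overlapped with WT.

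H4c4, at 12.05, 12.17, 11.95 and 11.62 in flox and 11.92, 11.90, 11.89 and 11.62 in WT, overlapped through flox 4 and differed by 0.12 (SE 0.12), by 0.23 without flox 4, by 0.04 without flox 2 and by 0.05 without WT 4. Of the remaining single-gene H4 rows, H4c14 differed by 0.08 (SE 0.07), H4c3 by 0.05 (SE 0.09) and H4c9 by -0.01 (SE 0.07). H4c9 was the only row above the filter with a lower mean in flox. The dim row of H4c17 and H4c11 differed by 0.19 (SE 0.10).

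All 8 H2B rows above the filter had higher means in flox, by 0.06 to 0.22, and their groups overlapped on every row. H2bc3 lay at 7.26, 7.20, 7.20 and 6.92 in flox and at 6.87, 7.01, 7.01 and 6.82 in WT, a difference of 0.22 (SE 0.08). Flox 1 to 3 were above all WT arrays and flox 4 was within the WT range. H2bc8, at 6.79, 6.79, 6.95 and 6.65 in flox and 6.73, 6.46, 6.80 and 6.49 in WT, differed by 0.17 (SE 0.09), and WT 3 exceeded every flox array but flox 3.

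H2bc9 lay at 9.45, 9.45, 9.57 and 9.44 in flox and at 9.43, 9.44, 9.44 and 9.05 in WT. All arrays but flox 3 and WT 4 lay between 9.43 and 9.45, and the difference of 0.14 (SE 0.09) was 0.04 without WT 4. H2bc4, with the highest mean of the H2B rows, lay at 11.73, 11.66, 11.67 and 11.53 in flox and 11.62, 11.52, 11.74 and 11.41 in WT, a difference of 0.08 (SE 0.08), which was 0.02 without WT 4. Of the rest, H2bc14 differed by 0.13 (SE 0.10), H2bc21 by 0.12 (SE 0.07), H2bc18 by 0.08 (SE 0.06) and the testis-specific H2bc1 by 0.06 (SE 0.12). The dim row of H2bc22 differed by -0.03 (SE 0.08).

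Another 8 rows name many H2B or H2A genes together with a symbol outside the naming rule and so are not members. The 6 H2B rows of this kind had higher means in flox by 0.22 to 0.27, with flox 1 to 3 above every WT array in their mean and flox 4 within the WT range. The 2 H2A rows differed by 0.16 and 0.18. In the median, these shared H2B rows differed by 0.26 and the single-gene H2B rows by 0.13, while the shared and single-gene H4 rows gave 0.12 and 0.10, a description with no test. The shared and single-gene H4 rows name genes in common.

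**Figure D3:**
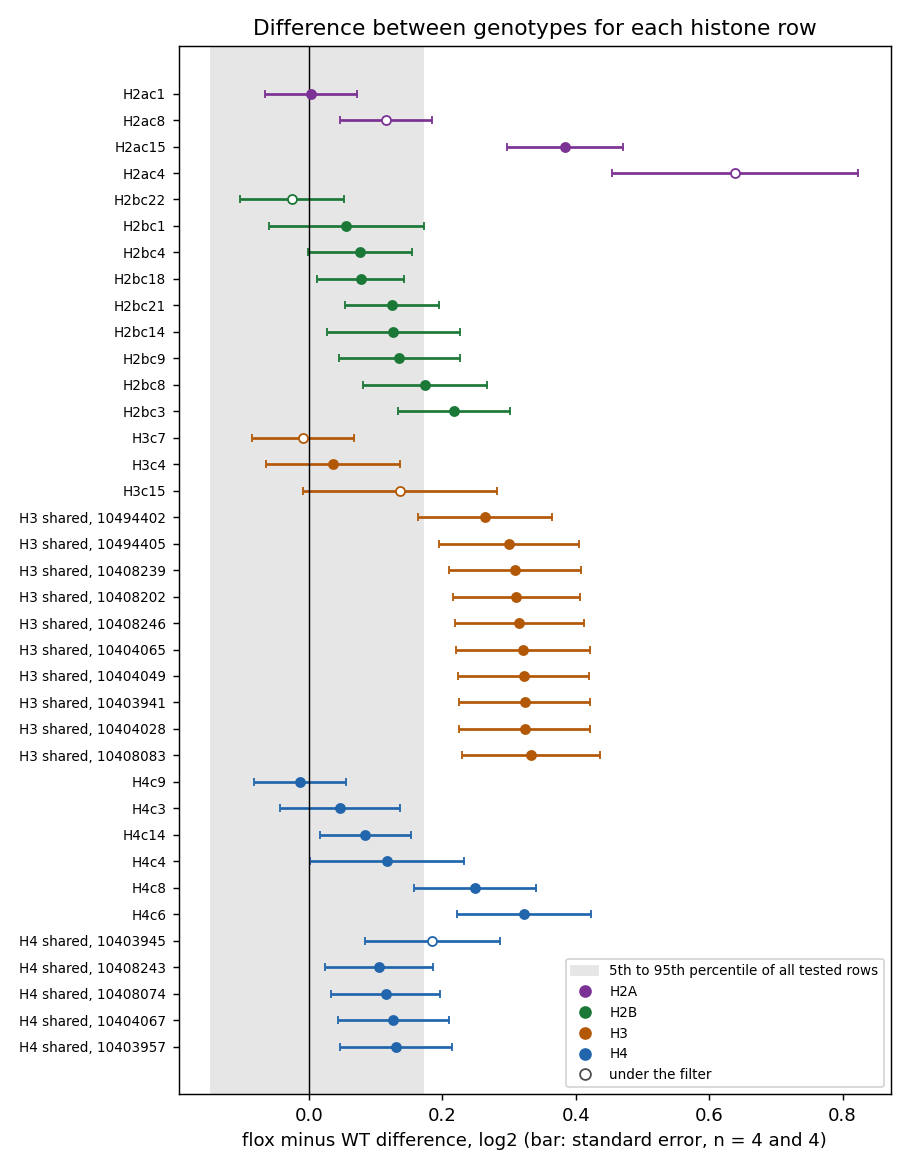
Difference between genotypes (horizontal axis, flox minus WT on the log2 scale, bars giving the standard error, n = 4 and 4) for each of the 37 histone rows (vertical axis), with open points for rows under the filter and a grey band for the 5th to 95th percentile of all tested rows, -0.15 to 0.17. The 10 shared H3 rows lie at 0.26 to 0.33, outside the band, and most H2B rows lie inside it.

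By older cluster names, 18 of the single-gene rows belong to Hist1 and 4 to Hist2. The 14 Hist1 rows above the filter had a median difference of 0.12, and the 3 Hist2 rows, H2bc18, H2bc21 and H4c14, one of 0.08.

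The samples also differed within a genotype. Averaged over the 31 rows after each row was centred on its mean, flox arrays 1 to 4 lay at 0.11, 0.18, 0.17 and -0.09, and WT arrays 1 to 4 at -0.10, -0.12, 0.02 and -0.18. Flox 2 was the highest array on 15 of 31 rows, the 10 shared H3 rows among them, and WT 4 the lowest on 14. Flox 4 reached no higher than the highest WT array on 27 of 31 rows and was below the WT mean on 12. The share of all rows with either order was not computed, so these counts alone do not set flox 4 apart. Without flox 4, 3756 of 18691 rows had an unadjusted p under 0.05 in limma, against 319 to 719 without any other array. The departure of flox 4 from the other flox arrays was thus not particular to histone rows, and its cause was not tested. On 20 of the 31 rows, flox 1 to 3 were all above every WT array, where 8.69% of all rows had this order. The 20 include the 10 shared H3 rows and the 4 shared H4 rows, each set repeating its own pattern. Without flox 4 the median difference of the 31 rows was 0.22. Without WT 3, the highest WT array, 12 of 31 rows had flox above WT on every remaining array (2.06% of all rows did), and without WT 2 it was 3 (1.95%). The 10 shared H3 rows are among the 12 and cannot be taken as separate measurements.

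Rows of different classes followed each other from array to array. The mean of the 10 shared H3 rows was compared with each of the other 21 histone rows above the filter over the 8 arrays, which share the tissue and the hybridisation. It gave r above 0.7 for 12 of them, where 6.70% of non-histone rows did, and the median r was 0.75 against 0.02. When each group was first centred on its own mean, which removes the difference between genotypes, 11 of 21 stayed above 0.7 (5.58% of non-histone rows) with a median of 0.72. After that centring, H2bc14 (0.95), the shared H4 rows (0.89 to 0.92) and H4c4 (0.81) were closest to H3, and H2ac1 (-0.27), H2bc1 (0.11) and H4c8 (0.27) were among the farthest. The gene lists described below were compared with the H3 mean in the same way. Their median r was 0.76 for mitosis, 0.70 for macrophage, 0.69 for T cell and 0.55 for DNA replication genes. After centring of each group these medians were 0.50, 0.61, 0.39 and 0.54. The remaining lists had medians from -0.41 to 0.43 before that centring. Following the H3 rows was thus not particular to histone rows. These correlations are descriptions with no test, and rows with like probe sequences can share signal.

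Outside the family, the rows most like H2ac15 over the 8 arrays were Lig1, Cxcr4, Asf1b, Pdlim1 and Eif4a1, with Pearson r of 0.987, 0.975, 0.972, 0.961 and 0.961. Lig1 is the DNA ligase that joins Okazaki fragments, Asf1b a chaperone that carries H3 and H4 to replicating chromatin, Cxcr4 a chemokine receptor, Pdlim1 a cytoskeletal adaptor and Eif4a1 a translation initiation helicase. With groups centred on their own means, r was 0.958 for Lig1, 0.907 for Cxcr4, 0.945 for Asf1b, 0.916 for Pdlim1 and 0.885 for Eif4a1. Without flox 2 and flox 3, the arrays farthest from the median of H2ac15, r ranged from 0.851 to 0.960. Asf1b lay at 8.20, 8.46, 8.42 and 8.21 in flox and at 8.08, 8.16, 8.12 and 8.07 in WT, a difference of 0.21 (SE 0.07), with the same 2 flox arrays high as for H2ac15.

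The genes that control histone mRNA were described in the same way, with no test. Of 25 genes for histone transcription and mRNA processing, 20 had a higher mean in flox, with a median difference of 0.06, and 0 had groups apart. Among them were Ccne2, a cyclin E gene (0.21, SE 0.09), Eri1, the exonuclease that trims the stem-loop end (0.15, SE 0.10), Cdk2 (0.13, SE 0.07) and Npat (0.12, SE 0.13). Slbp differed by 0.07 (SE 0.09), at 8.08, 8.12, 7.96 and 7.91 in flox and 8.14, 7.93, 7.98 and 7.74 in WT, with full overlap. Of 20 histone chaperone genes above the filter, 13 were higher and 7 lower, with a median of 0.02 (0.00 without WT 3 and 0.05 without WT 4). Besides Asf1b they included its paralog Asf1a (-0.12, SE 0.07) and Supt16, a subunit of the FACT complex (0.12, SE 0.06).

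Variant histones and linker histones are not members and had median differences below that of the members, a contrast that was not tested. The 8 variant histone genes had a median difference of 0.07 (0.11 without flox 4), led by H2az1, the gene of H2A.Z (0.16, SE 0.08), and H2ax, whose product marks broken DNA (0.10, SE 0.07). The 4 linker histone genes above the filter had a median of 0.01, with H1f5 at 0.16 (SE 0.08) and H1f1 at -0.06 (SE 0.08).

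Replication and division genes had higher means in flox for most members. Of 36 DNA replication genes 31 were higher, with a median difference of 0.07, and 3 had flox above WT on every array. Of 25 mitosis genes 24 were higher, with a median of 0.24, and 5 had flox above WT on every array. Over all rows, 49.2% were higher and 1.09% had flox above WT on every array. Ccna2, the S-phase cyclin A gene, differed by 0.31 (SE 0.11), and Mcm4, of the replicative helicase, by 0.30 (SE 0.08). The DNA replication list had centred means of 0.02, 0.15, 0.07 and -0.05 on flox arrays 1 to 4 and -0.06 to -0.03 on WT arrays, so flox 1 to 3 were above all WT arrays and flox 4 was within their range, as for the shared H3 rows. The mitosis list had centred means of -0.09, 0.29, 0.23 and 0.02 on flox arrays 1 to 4 and -0.14 to -0.10 on WT arrays. The shared H3 rows had 0.16, 0.34, 0.23 and -0.10 on the flox arrays and -0.25 to 0.01 on the WT arrays. On flox 1 the H3 rows were thus high while mitosis genes were at the WT level, and on flox 4 the H3 rows lay within the WT range while mitosis genes lay above it.

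**Figure D4:**
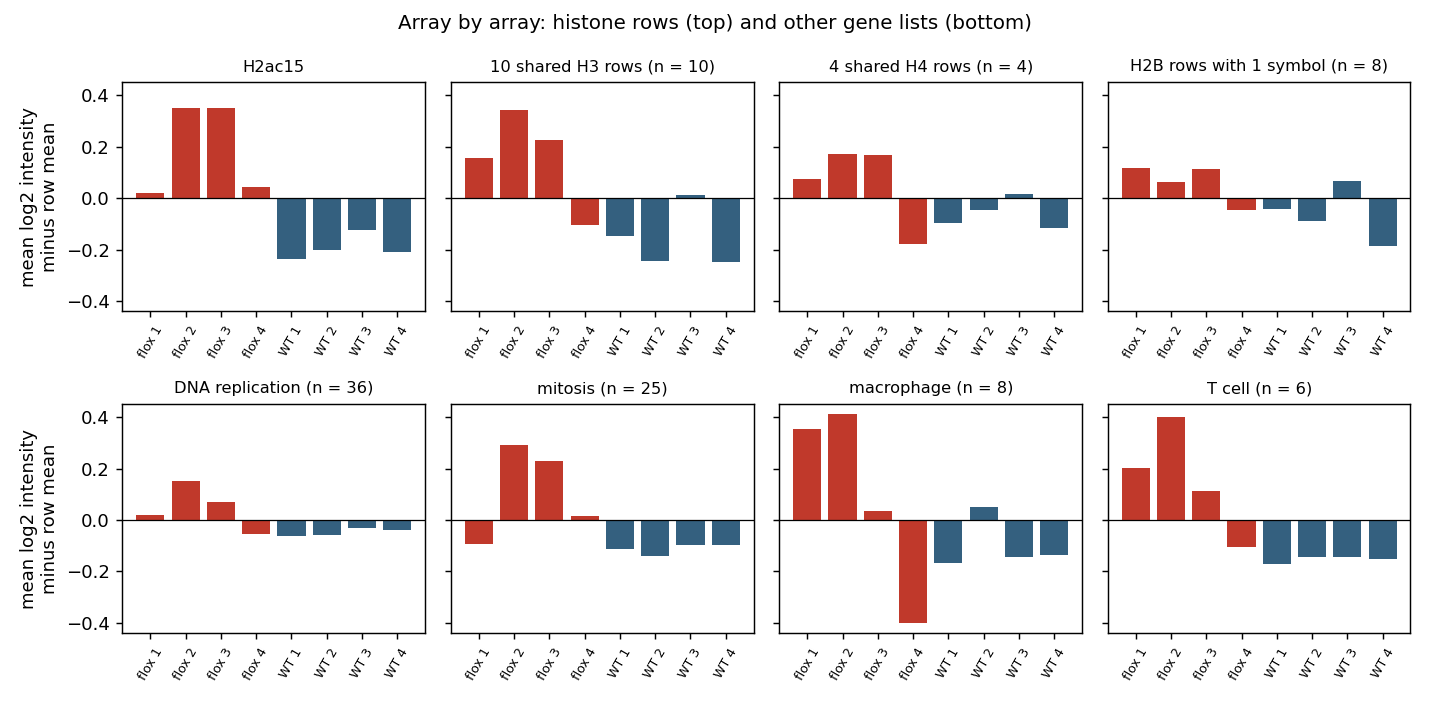
Mean log2 intensity minus row mean (vertical axis, bars from 0) on each of the 8 arrays (horizontal axis; red for ST2 flox, blue for ST2 WT) for H2ac15 and 3 sets of histone rows (top) and 4 other gene lists (bottom), with the number of rows. Flox 2 and flox 3 are high for H2ac15, the shared H3 and H4 rows and mitosis genes, while for the H2B rows flox 2 lies just below WT 3. Flox 1 is above the WT arrays for the shared H3, shared H4 and H2B rows and low for mitosis genes.

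Markers of leukocytes also had higher means in flox. All 8 macrophage markers had higher means in flox, with a median difference of 0.21 (0.12 without flox 2 and 0.13 without flox 1), and centred means of 0.35, 0.41, 0.04 and -0.40 on flox arrays 1 to 4 against -0.17 to 0.05 in WT. Their mean log2 level ranged from 9.23 to 10.04 in flox and from 9.46 to 9.68 in WT. All 6 T cell markers above the filter, of 8, were higher, with a median of 0.24 and mean log2 levels of 7.43 to 7.94 in flox and 7.36 to 7.39 in WT. Cd3g, a chain of the CD3 complex, differed by 0.85 (SE 0.28), the largest difference of all 18691 rows, Thy1 by 0.30 (SE 0.14), Il7r by 0.29 (SE 0.10) and Cd4 by 0.20 (SE 0.08), while Cd3e, another CD3 chain, differed by 0.06 (SE 0.05). Satellite cell and myoblast markers had a median difference of 0.03 (4 of 6 higher; mean log2 level 8.99 to 9.29 in flox and 9.05 to 9.16 in WT), and the 3 erythroid markers above the filter, of 6, one of 0.03 (6.96 to 7.27 in flox and 7.03 to 7.18 in WT). The part of these cells in the histone differences was not tested.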

How the data were processed

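RNA from 8 muscle samples was measured on an Affymetrix mouse whole-transcript array (Gene ST), after amplification with a whole-transcript kit per the labels. The authors deposited probeset intensity values, made with RMA in Affymetrix Power Tools per the submitters' processing notes; no version, genome build or row filter is given in the labels or notes used here. The deposited intensity runs from 5.81 to 19080 on a linear scale. RMA compresses large changes of dim rows and hides any shift shared by most transcripts. The number of arrays limits the precision.

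Values were taken to log2 without a pseudocount. Rows were kept separately, not merged by gene. Of 24922 rows, 21425 had 1 symbol, 1399 several and 2098 none in the platform annotation; rows with several symbols are given by row number. No array shared more than 14 identical values with another. All 37 member genes were found in the RefSeq gene table (GRCm38.p6), used for older names, and 32 of them in a separate RefSeq table of promoter windows of the same build, used for the sequences. The genotypes were fitted in limma 3.58.1 (R 4.3.3) over all 18691 rows at or above the 25th percentile, with Benjamini-Hochberg adjustment; the fit was tested on simulated data. Differences, flox minus WT, carry the standard error of that fit. The members and gene lists were chosen with earlier results of these data known. Rows described array by array were H2ac15 and, per histone class above the filter, the 3 with the largest difference in size and the one with the highest mean; of other lists, up to 4 genes with the largest difference. H2ac4, Slbp, Cd3e and the array values of Asf1b and Cd3g were given after their values were seen. Alternatives were no filter, a filter at the 50th percentile, median centring, quantile and cyclic loess normalization, the sample number as a block, leaving out each array, 1 row per symbol entry and, chosen after seeing the data, adding the 8 rows just outside the naming rule.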

Additional observations from a re-analysis of the deposited data

Results flagged for a closer look

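Within groups of 4 arrays, 1 array stood far from the other 3 on 4 occasions among the 74 groups examined (37 rows in each genotype), by Dixon's criterion of 0.829, where chance flags about 1 in 20. H2bc9 was at 9.05 on WT 4 against 9.43 to 9.44 on the other WT arrays, and at 9.57 on flox 3 against 9.44 to 9.45 on the other flox arrays. H4c4 was at 11.62 on WT 4 against 11.89 to 11.92. H2bc3 was at 6.92 on flox 4 against 7.20 to 7.26.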

How the results depend on the processing

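The higher mean in flox held for most histone rows under every alternative: 30 of 31 rows with median centring, quantile normalization or cyclic loess, 28 to 31 of 31 over the fits without each array, and 18 of 19 with 1 row per symbol entry, a count that fell because fewer rows entered. The median difference was 0.13 to 0.17 under the 3 scalings, 0.26 with the filter at the 50th percentile, where the 10 shared H3 rows made up more of the 23 rows left, 0.11 to 0.22 without each array and 0.22 with the 8 rows just outside the rule. The number of rows with flox above WT on every array was 1 to 20 without each array: 20 without flox 4, 12 without WT 3, 3 without WT 2, 2 without flox 2 or flox 3 and 1 otherwise. The 10 shared H3 rows, which repeat 1 pattern, are among both the 20 and the 12. Limma called 0 rows of the whole table under all alternatives except without flox 4, where it called 2 (0 to 2 over these fits), 0 of them histone rows, and the cause was not tested. Same-numbered samples of the genotypes did not deviate together in every pair (r of 0.01, 0.35, 0.25 and 0.05 for numbers 1 to 4 over all rows). With the number as a replicate block, limma called 0 rows, 909 instead of 705 rows had an unadjusted p under 0.05, and the histone median stayed at 0.14 with 30 rows higher, as it must in a balanced design. The other 327 values for single rows, lists and correlations moved by less than their spread between replicates, or by under 0.2 for correlations. Low signal limits the 6 dim rows.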
